A study of Mus musculus with 4 samples.

Results

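The 9 genes described here encode subunits of the voltage-gated sodium channel and were chosen by name: the pore-forming alpha subunits Scn1a, Scn2a, Scn3a, Scn8a, Scn9a and Scn7a, and the auxiliary beta subunits Scn2b, Scn3b and Scn4b. They are 9 of the 32285 genes counted. The RNA came from nuclei of frozen hippocampi (both hemispheres) of adult C57BL/6N mice, with 1 library per mouse: 2 WT mice and 2 KI littermates heterozygous for the Cyfip2 R87C allele (Cyfip2+/R87C), a knock-in change at the endogenous locus that every cell of the animal carries and that models a human epileptic encephalopathy. The question asked of the data was how the transcripts of hippocampal cell types differ between these genotypes. The KI replicate 2 library carries R88C in place of R87C in its treatment label while its genotype label reads KI, and the library stayed in the KI group here. All libraries share 1 batch label.

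Values are UMIs (unique molecular identifiers, each standing for 1 captured RNA molecule) summed over the nuclei of a class in a library and divided by the class's total, as CPM (counts scaled to an equal total in every class and library). Of 55640 barcodes, 55367 had at least 500 genes, and 35102 of these (63.4%) were placed in a cell class by marker genes that include no sodium channel. A further 7034 nuclei (12.7%) carried the markers of a pair of lineages and 13231 (23.9%) had no clear leading class, and both sets were left out. The libraries held 72951460 to 80875469 UMIs, with a median per nucleus of 3985 (WT replicate 1), 4620 (WT replicate 2), 4750 (KI replicate 1) and 4846 (KI replicate 2), and 313 barcode sequences occurred in more than 1 library. The KI libraries stood apart from the WT libraries: fewer of their nuclei were placed in a class (60.9% and 52.5%, against 68.9% and 70.3%), DG granule neurons made up 12.9% and 12.2% of nuclei against 23.3% and 21.7%, and the nuclear RNA Malat1 took 13.7% and 12.1% of UMIs against 8.89% and 8.71%. The part of these differences in the values below was not tested. The targeted gene Cyfip2 stood at 181 and 179 CPM in WT, against 173 and 170 CPM in KI, and a heterozygous base change is not visible in gene counts. Of the classes, 17 had at least 20 nuclei in each library and were tested. At least 2-fold enrichment over the other gated nuclei was seen for every marker of a class except 1 of 7 in CA3 pyramidal neurons (lowest 1.98-fold) and 1 of 6 in the interneurons gated by markers of the caudal ganglionic eminence (CGE), where the lowest was 0.908-fold.

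The alpha subunit is a large membrane protein that by itself forms the sodium-selective pore, opens on depolarisation and then inactivates within milliseconds, and so carries the rising phase of the action potential. Scn1a is the main alpha subunit of fast-spiking interneurons, Scn2a and Scn8a are those of excitatory axons, with Scn8a reaching mature initial segments and nodes of Ranvier, Scn3a is most abundant before birth, and Scn9a is best known from pain-sensing neurons. Scn7a encodes an atypical member of the family that senses extracellular sodium and is thought not to fire action potentials. The beta subunits are small single-pass proteins with an immunoglobulin-like outer domain that adjust channel gating and surface delivery. Loss of Scn1a function in people causes Dravet syndrome, and variants of Scn2a, Scn3a and Scn8a are further causes of childhood epilepsy.

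On mm10, 5 of the alpha subunit genes lie in a cluster of 1327.8 kb on chromosome 2, in the order Scn3a (65457118-65567627), Scn2a (65620771-65767447), Scn1a (66270778-66440840), Scn9a (66480080-66634962) and Scn7a (66673425-66784914), with Scn2a on the plus strand and the others on the minus strand. Scn8a lies on chromosome 15 (100869858-101045938). The genes Scn3b (40269217-40291618), Scn2b (45117782-45130070) and Scn4b (45138395-45154152) lie on chromosome 9.

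Sodium channel RNA was counted in all classes, and neurons held more than glia. Summed over the 9 genes, the level was highest in Pvalb interneurons, at 1547 and 1590 CPM in WT, against 1694 and 1594 CPM in KI. The sum was 1363 ± 114 CPM (SD, n = 4 libraries here and below) in DG granule neurons, 1235 ± 44.5 CPM in CA1 pyramidal neurons, 550 ± 46.4 CPM in oligodendrocytes and 476 ± 67.4 CPM in astrocytes. Droplets also capture free RNA, so the microglia, which should hold little of the neuronal channels, give the background: their median depth was 1397 to 1522 UMIs per nucleus against 6171 to 7476 in Pvalb interneurons. The microglial sum was 643 ± 56.4 CPM, so the sums of oligodendrocytes and astrocytes were not shown to exceed background.

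**Figure D1:**
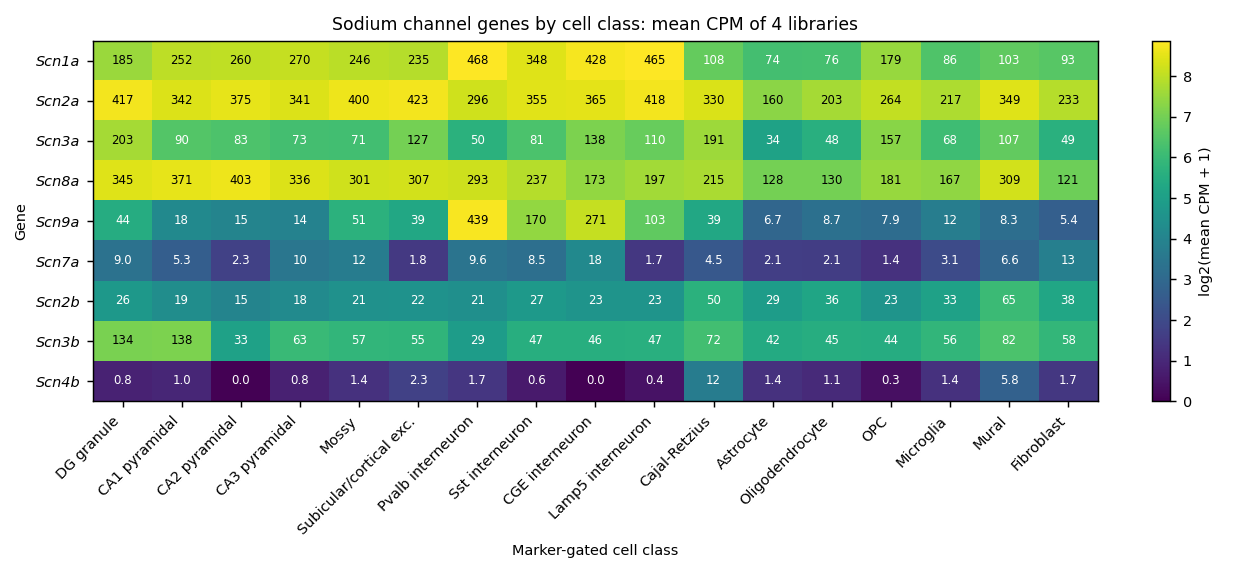
Mean level of the 9 sodium channel genes (rows) in the 17 tested classes (columns), in CPM over 4 libraries, with colour on a log2(CPM + 1) scale. Scn1a and Scn9a are highest in the interneuron classes (468 and 439 CPM in Pvalb interneurons), whereas Scn3a is highest in DG granule neurons (203 CPM).

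Scn1a was highest in interneurons. Its level in Pvalb interneurons, the fast-spiking basket and axo-axonic cells, was 452 and 448 CPM in WT, against 494 and 477 CPM in KI. Lamp5 interneurons (465 ± 65.6 CPM) and CGE interneurons (428 ± 50.4 CPM) overlapped with them, and Sst interneurons came next at 348 ± 15.6 CPM. No library of CGE interneurons fell into the range of Sst interneurons, nor any library of Sst interneurons into that of CA3 pyramidal neurons (270 ± 18.2 CPM), the highest excitatory class. From CA3 down, neighbouring excitatory classes overlapped, ending with DG granule neurons at 185 ± 16.2 CPM. Oligodendrocyte precursor cells (OPC) held 179 ± 13.7 CPM, above astrocytes (73.8 ± 6.14 CPM) and oligodendrocytes (75.9 ± 8.01 CPM).

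Scn2a varied less among neurons than Scn1a. Its neuronal class means ran from 296 ± 35.9 CPM in Pvalb interneurons to 423 ± 31.9 CPM in the subicular or cortical excitatory neurons and 417 ± 37 CPM in DG granule neurons, and its values in astrocytes (160 ± 3.73 CPM) and oligodendrocytes (203 ± 12.1 CPM) lay below every neuronal class named here. Scn8a was highest in CA2 pyramidal neurons, with 390 and 416 CPM in WT, against 424 and 380 CPM in KI, followed by CA1 pyramidal neurons at 371 ± 23.2 CPM and DG granule neurons at 345 ± 41 CPM. Among interneurons it stood at 293 ± 27.7 CPM in Pvalb, 237 ± 25.4 CPM in Sst, 197 ± 17.2 CPM in Lamp5 and 173 ± 31.5 CPM in CGE cells. The Pvalb libraries did not overlap with the Sst libraries, whereas the Lamp5 and CGE libraries overlapped.

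Scn3a was highest in DG granule neurons, the class that keeps being born after birth, and in Cajal-Retzius cells, an early-born and mostly transient neuron. In DG granule neurons it stood at 216 CPM in both WT libraries and at 181 and 197 CPM in KI, and in Cajal-Retzius cells at 191 ± 10.7 CPM. OPC came next with 165 and 153 CPM in WT, against 139 and 171 CPM in KI, all below the Cajal-Retzius libraries. The lowest neuronal class was the Pvalb interneurons at 49.8 ± 7.07 CPM.

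**Figure D2:**
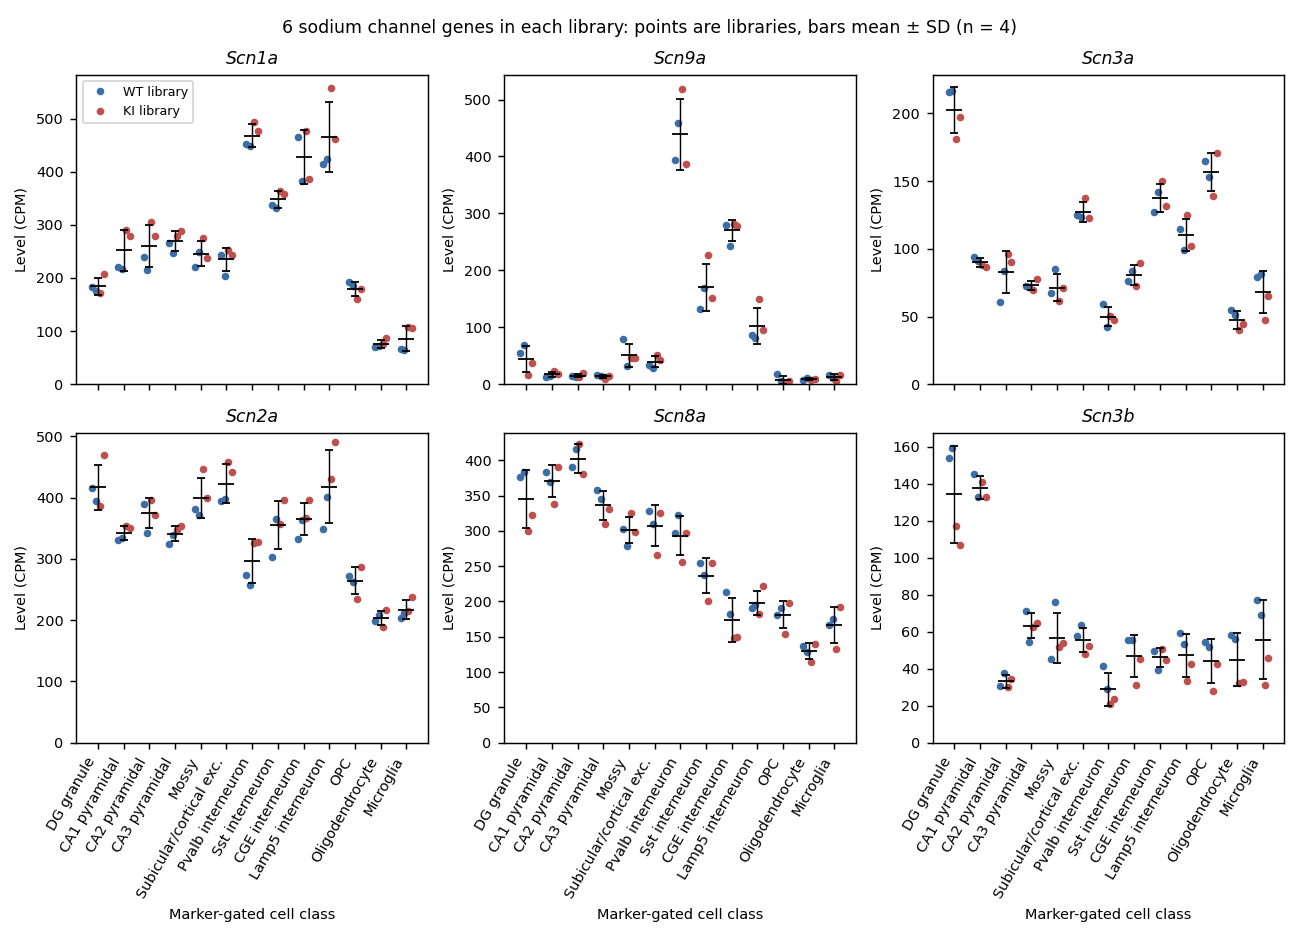
Level of Scn1a, Scn9a, Scn3a, Scn2a, Scn8a and Scn3b in CPM (vertical axes) in 13 classes (horizontal axes), with 1 point per library (WT blue, KI red) and the mean ± SD of the 4 libraries. The spread among libraries of a class is small against the distance between Pvalb interneurons and DG granule neurons for Scn1a, Scn9a and Scn3a.

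Scn9a had the steepest class pattern. In Pvalb interneurons it stood at 393 and 459 CPM in WT, against 518 and 386 CPM in KI, which was 72.0 to 389 times the UMIs per nucleus found in microglia of the same library. CGE interneurons followed at 271 ± 18.6 CPM, Sst interneurons at 170 ± 40.6 CPM and Lamp5 interneurons at 103 ± 31.5 CPM. The Pvalb, CGE and Sst libraries did not overlap with each other, the Sst and Lamp5 libraries overlapped, and the Lamp5 libraries all exceeded the mossy cells at 50.9 ± 19.9 CPM. In pyramidal neurons of CA1 (17.6 ± 4.36 CPM) and CA3 (14.2 ± 2.78 CPM) the level was close to that of microglia (12.5 ± 5.27 CPM), although on UMIs per nucleus CA1 exceeded microglia 3.08- to 18.2-fold. CA1 nuclei were deeper, with a median of 5616 to 7651 UMIs against 1397 to 1522 in microglia. In CPM the ranges of CA1 (13.4 to 23.3) and microglia (5.89 to 16.8) overlapped, so Scn9a in CA1 was not shown to exceed background.

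The transcript most like Scn9a across the 17 class means was Gm13629, a noncoding antisense gene. It starts 40 bases from the annotated start of Scn1a, runs on the plus strand to 66546026 and covers 65.9 kb (42.6%) of the Scn9a span, and whether strand was used in counting is not given in the sources used here, so reads of the shared stretch may not be separable. The same limit holds for Scn1a, Scn3a, Scn2b and Scn3b, each of which overlaps another annotated gene. Gm13629 stood at 289 and 303 CPM in WT, against 249 and 243 CPM in KI Pvalb interneurons, at 171 ± 24.8 CPM in CGE, 115 ± 18.9 CPM in Sst and 58.0 ± 17.5 CPM in Lamp5 interneurons, and at 11.7 CPM on average in CA1 pyramidal neurons. The correlation with Scn9a (Pearson r of log2(CPM + 1)) was 0.965, the highest of 14641 genes compared, and is a description over classes that share the same libraries. The order of the 4 interneuron classes was the same for both transcripts.

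**Figure D3:**
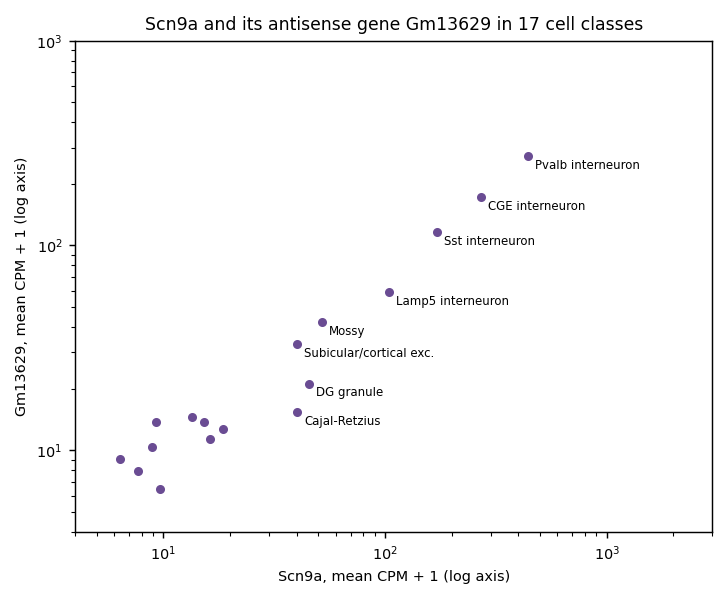
Mean level of Gm13629 against that of Scn9a (CPM + 1, both axes logarithmic), with 1 point per class for 17 classes. Both transcripts are highest in Pvalb interneurons (439 and 271 CPM) and fall through CGE and Sst to Lamp5 interneurons.

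The 300-base promoter windows of the clustered genes Scn1a, Scn9a and Scn7a are shown because Scn1a and Scn9a were higher together in interneurons and Scn7a differed between KI and WT. They run 5′ to 3′ on the minus strand of chromosome 2, from 250 bases before to 50 after the start annotated by RefSeq (GRCm38.p6), which had windows for 7 of the 9 genes. Capitals mark matches, on either strand, to a TATA box (TATAAA), a GC box (GGGCGG) or an E-box (CANNTG).
Scn1a, chr2:66440788-66441087: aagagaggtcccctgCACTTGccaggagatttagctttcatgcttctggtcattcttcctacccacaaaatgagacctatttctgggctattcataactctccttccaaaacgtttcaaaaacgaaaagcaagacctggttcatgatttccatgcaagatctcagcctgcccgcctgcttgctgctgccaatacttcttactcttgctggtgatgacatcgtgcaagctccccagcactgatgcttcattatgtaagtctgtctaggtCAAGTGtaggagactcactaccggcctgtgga
Scn9a, chr2:66634913-66635212: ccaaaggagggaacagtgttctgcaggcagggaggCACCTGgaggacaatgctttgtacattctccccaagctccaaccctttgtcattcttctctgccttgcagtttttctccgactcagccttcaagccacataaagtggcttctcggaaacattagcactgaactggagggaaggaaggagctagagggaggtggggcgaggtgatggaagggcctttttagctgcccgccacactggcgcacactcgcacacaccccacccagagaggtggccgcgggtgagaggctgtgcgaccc
Scn7a, chr2:66784861-66785160: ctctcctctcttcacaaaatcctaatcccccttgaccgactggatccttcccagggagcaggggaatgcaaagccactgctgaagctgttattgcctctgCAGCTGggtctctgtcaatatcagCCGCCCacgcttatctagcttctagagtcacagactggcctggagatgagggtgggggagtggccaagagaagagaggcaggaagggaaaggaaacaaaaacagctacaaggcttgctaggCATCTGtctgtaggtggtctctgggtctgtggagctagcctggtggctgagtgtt
Scn1a had 2 E-boxes, Scn9a had 1, and Scn7a had 2 E-boxes and 1 GC box, and these 3 windows held no TATA box. Of 32851 promoter windows in the table, 72.3% held an E-box, 35.7% a GC box and 13.6% a TATA box, so these matches are common, and E-boxes were not tested for binding. The start of Gm13629 lies at base 208 of the Scn1a window, on the opposite strand.

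Scn7a was sparse in every neuronal class. In WT it stood at 3.56 and 3.94 CPM in DG granule neurons, at 1.24 and 1.17 CPM in CA1 pyramidal neurons, and at 9.52 and 10.6 CPM in CA3 pyramidal neurons. On UMIs per nucleus, CA3 exceeded microglia 14.2- to 25.2-fold. The microglial Scn7a values rest on very few UMIs, at most 0.0084 per nucleus over 182 to 357 nuclei per library. This ratio is therefore imprecise. CA1 in WT was at 0.00779 and 0.00866 UMIs per nucleus, close to the microglia of the same libraries at 0.00341 and 0.00758.

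Among the beta subunits, Scn3b had the clearest class pattern. It was highest in CA1 pyramidal neurons, with 145 and 133 CPM in WT, against 141 and 133 CPM in KI, and in DG granule neurons at 134 ± 26.2 CPM, whereas CA3 (63.3 ± 6.88 CPM) and CA2 pyramidal neurons (33.2 ± 3.47 CPM) held less. Interneurons ranged from 28.7 ± 9.04 CPM in Pvalb cells to 47.1 CPM in Lamp5 cells. Microglia held 55.6 ± 21.2 CPM, more than Pvalb interneurons on this scale, but on UMIs per nucleus CA1 exceeded them 6.66- to 21.0-fold.

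Scn2b showed no such order. Its values were 24.7 and 25.1 CPM in WT, against 7.88 and 19.1 CPM in KI CA1 pyramidal neurons, and 43.7 and 42.5 CPM in WT, against 17.7 and 26.5 CPM in KI microglia. The class that should lack a neuronal channel was therefore no lower in CPM, and excitatory neurons exceeded microglia only 2.02- to 2.20-fold in UMIs per nucleus, so these counts were read as close to background. Scn4b, a beta subunit known from fast-firing neurons, was near the limit of detection: 70, 71, 64 and 105 UMIs were counted over all nuclei of the WT and KI libraries, which is 0.877 to 1.30 CPM. In CA2 pyramidal neurons and CGE interneurons 0 UMIs were counted over the 4 libraries, which allows up to 0.848 and 0.722 CPM. Limits of this kind cover counting error only.

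To compare genes of unequal size, levels were divided by the gene span, since nuclear RNA holds introns. Whether intronic reads were counted is not given in the sources used here, so this scale may not suit the counts. In excitatory neurons Scn3b had the highest level per kb (4.87 ± 0.672 CPM per kb), followed by Scn2a (2.60 ± 0.122), Scn8a (1.98 ± 0.142), Scn2b (1.75 ± 0.695), Scn1a (1.35 ± 0.136), Scn3a (1.18 ± 0.1) and Scn9a (0.198 ± 0.0383 CPM per kb). Inhibitory neurons had Scn1a (2.49 ± 0.146 CPM per kb) and Scn2a (2.33 ± 0.214) at the top, with Scn9a (1.84 ± 0.274) level with Scn2b (1.88 ± 0.492) and Scn3b (1.78 ± 0.348), and Scn8a (1.36 ± 0.112) and Scn3a (0.763 ± 0.0255 CPM per kb) below. Scn3b and Scn2b have the shortest spans of these 7 (22.4 and 12.3 kb), and how the scale depends on span was not tested. The Scn2b counts were read as close to background above, so its place in these orders carries that limit.

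Differences between classes were tested on the sums per library, with the library as a block (edgeR quasi-likelihood test, Benjamini-Hochberg adjustment over all genes tested). Between inhibitory and excitatory neurons, 7 of 9 genes differed: Scn1a, Scn9a and Scn7a were higher in inhibitory neurons and Scn2a, Scn3a, Scn8a and Scn3b were lower. Of all 17587 genes tested, 23% were higher and 23.8% lower, so called genes were common in this contrast. Scn9a had the largest difference of the 9, with 256 and 283 CPM (WT) and 346 and 256 CPM (KI) in inhibitory neurons against 33.9, 36.6, 23.0 and 29.5 CPM in excitatory neurons (log2 difference 3.14 ± 0.15 SE, 8.79-fold, edgeR adjusted p = 3.21e-07). Scn1a was 1.74-fold higher, from 230 ± 23.2 to 423 ± 24.8 CPM (log2 difference 0.80 ± 0.06, edgeR adjusted p = 6e-06). Scn3b fell the most, from 109 ± 15.1 CPM in excitatory to 39.9 ± 7.81 CPM in inhibitory neurons (log2 difference -1.54 ± 0.08, edgeR adjusted p = 3.77e-07).

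The log2 differences of Scn3a (-0.71 ± 0.06), Scn8a (-0.62 ± 0.06) and Scn2a (-0.24 ± 0.06) were smaller. Scn7a was 0.42 ± 0.13 higher (edgeR adjusted p = 0.0268) and lost its call in 5 of 11 other settings. Scn2b did not pass (log2 difference 0.06, 95% interval -0.18 to 0.29, edgeR adjusted p = 0.692), nor did Scn4b (edgeR adjusted p = 0.532). Gm13629 rose with Scn9a, by 3.19 ± 0.07 on the log2 scale (edgeR adjusted p = 5.7e-09).

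Within interneurons, Pvalb and Sst cells were set against CGE and Lamp5 cells, and 5 of 8 tested genes differed (background 11.9% higher and 10.7% lower). Scn8a, which supports fast firing, was higher in Pvalb and Sst cells (log2 difference 0.58 ± 0.07, edgeR adjusted p = 5.53e-06), and so was Scn9a in the pooled contrast (0.64 ± 0.09, edgeR adjusted p = 1.89e-05), although by class only Pvalb cells (439 CPM) exceeded CGE cells (271 CPM) and Sst cells (170 CPM) lay below them. Scn3a was lower by 0.99 ± 0.09 (edgeR adjusted p = 5.61e-08), and Scn2a and Scn3b were lower by smaller amounts (log2 differences -0.24 ± 0.07 and -0.36 ± 0.12), whose calls were lost in 3 and 5 of 11 other settings. Scn1a did not pass, with an interval of -0.21 to 0.08.

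Between the principal cells, CA1 pyramidal neurons were set against DG granule neurons, and 4 of 9 genes differed (background 20.6% higher and 18.9% lower). Scn1a was higher in CA1 (log2 difference 0.52 ± 0.09, edgeR adjusted p = 0.00445), and Scn3a (-1.09 ± 0.06, edgeR adjusted p = 3.95e-05), Scn7a (-0.87 ± 0.22, edgeR adjusted p = 0.0199) and Scn2b (-0.35 ± 0.09, edgeR adjusted p = 0.0219) were lower. The calls of Scn7a and Scn2b were lost in 3 and 4 of 11 other settings, both with a stricter gate (adjusted p = 0.0951 and 0.0846) and without WT replicate 1 (0.0587 and 0.0533), Scn7a also without KI replicate 2 (0.0573) and Scn2b also without WT replicate 2 (0.0817) and with DESeq2 (0.0613). For Scn9a, whose KI and WT values differed in opposite directions in these classes, the log2 difference of -1.16 ± 0.42 did not pass (edgeR adjusted p = 0.0693). CA3 differed from CA1 in 3 of 8 genes tested (background 17.9% higher and 17.1% lower), with Scn3b lower by 1.07 ± 0.06 (edgeR adjusted p = 7.77e-08), Scn3a lower by 0.25 ± 0.06 (edgeR adjusted p = 0.00838) and Scn7a higher by 1.30 ± 0.42 (edgeR adjusted p = 0.0305). Of these 3, Scn3b was called in 11 of 11 other settings, Scn3a was lost in 3 (adjusted p = 0.0625 with DESeq2, 0.0515 without WT replicate 1 and 0.0522 without WT replicate 2) and Scn7a in 4 (0.121 with DESeq2, 0.0854 with a stricter gate, 0.124 without WT replicate 1 and 0.142 without WT replicate 2). For Scn7a the CA3 libraries lay above the CA1 libraries in WT (9.52 and 10.6 against 1.24 and 1.17 CPM) and overlapped with them in KI (12.5 and 8.00 against 8.50 and 10.3 CPM).

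Among glia, OPC held more alpha subunit RNA than the oligodendrocytes they give rise to, and 5 of 6 tested genes differed (background 23.3% higher and 20.6% lower). OPC are glia that receive synapses from neurons and can carry sodium currents. Scn3a was 3.41-fold higher in OPC, at 157 ± 14 CPM against 47.6 ± 6.45 CPM (log2 difference 1.77 ± 0.12, edgeR adjusted p = 2.12e-11), and Scn1a was higher by 1.31 ± 0.12 (edgeR adjusted p = 1.52e-09). Scn8a (0.53 ± 0.11) and Scn2a (0.44 ± 0.10) were higher by less. Scn2b was lower (-0.58 ± 0.19, edgeR adjusted p = 0.0168), a call lost in 5 of 11 other settings, and Scn3b did not pass (edgeR adjusted p = 0.991). Per nucleus, OPC held 2.60 to 3.99 times the Scn3a UMIs of microglia 1.94 to 4.41 times the Scn1a UMIs, 1.38 to 2.04 times the Scn2a UMIs and 1.18 to 1.65 times the Scn8a UMIs, with a median depth of 2199 to 2649 UMIs against 1397 to 1522, so for Scn2a and Scn8a the OPC values were not shown to exceed background.

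**Figure D4:**
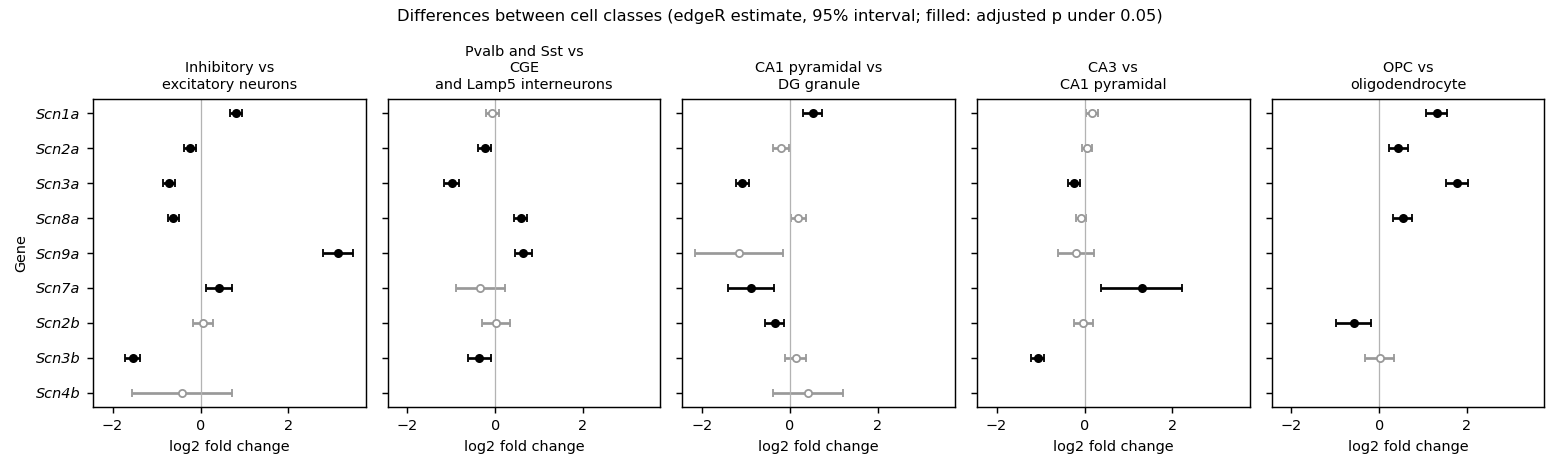
Log2 difference (horizontal axes) of each gene in the 5 class contrasts, with 95% intervals from edgeR. Filled points passed an adjusted p of 0.05, and a gene without a point was not tested in that contrast. Scn9a stands at 3.14 between inhibitory and excitatory neurons and Scn3a at 1.77 between OPC and oligodendrocytes.

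Between KI and WT, Scn7a was the sodium channel gene that differed most. It passed the test with a higher KI level in CA1 pyramidal neurons, DG granule neurons and CGE interneurons. Scn1a passed in CA1 pyramidal neurons and was higher in both KI libraries in most other classes. In CA1, 2 of 9 genes passed (background 5.75%), in DG granule neurons 1 of 9 (9.04%) and in CGE interneurons 1 of 8 (0.883%). With 2 mice per genotype an exact permutation test of a single value cannot go below p = 0.333, so the tests are those of the edgeR fit over all genes, which borrows the spread of other genes. Over the tested members, the median log2 difference was 0.17 in CA1 and -0.04 in DG granule neurons, against 0.00 and -0.00 over all genes tested.

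Scn7a in CA1 pyramidal neurons was counted with 15 and 14 UMIs in WT and 83 and 90 UMIs in KI, which is 1.24 and 1.17 CPM against 8.50 and 10.3 CPM. Both KI libraries lay above both WT libraries, an 8.21-fold difference (log2 3.04 ± 0.27, 95% interval 2.40 to 3.67, edgeR adjusted p = 0.00412). The call held in 11 of 12 other settings and was lost without the filter on low counts (edgeR adjusted p = 0.0504). Per nucleus, CA1 went from 0.00779 and 0.00866 UMIs in WT to 0.0743 and 0.0773 UMIs in KI, while microglia stood at 0.00341 and 0.00758 in WT and 0.0084 and 0.00549 in KI. These microglial values again rest on very few UMIs.

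In DG granule neurons Scn7a was counted with 61 and 56 UMIs in WT and 103 and 139 UMIs in KI, from fewer nuclei in KI, which is 3.56 and 3.94 CPM against 11.7 and 16.9 CPM. The difference was 4.22-fold (log2 2.08 ± 0.23, edgeR adjusted p = 0.00638) and was called in 12 of 12 other settings. In CGE interneurons the counts were 5 and 10 UMIs in WT and 23 and 36 UMIs in KI, which is 4.33 and 12.3 CPM against 22.0 and 31.5 CPM (3.70-fold, log2 1.89 ± 0.44, edgeR adjusted p = 0.0202). That call was lost in 4 of 11 other settings: without WT replicate 1 (edgeR adjusted p = 0.754), without WT replicate 2 (0.349), without KI replicate 2 (0.0574) and without the 5% of nuclei with most UMIs (0.144), and DESeq2 called no sodium channel gene in this class. Summed over all nuclei, Scn7a stood at 3.84 and 3.29 CPM in WT, against 8.88 and 9.40 CPM in KI (2.66-fold, log2 1.41 ± 0.17, edgeR adjusted p = 0.0390), in a comparison that called 0.771% of genes and that also carries the change in the mix of classes. Without WT replicate 1 or WT replicate 2 this call was lost (edgeR adjusted p = 0.0575 and 0.0736).

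Scn7a did not pass in CA3 pyramidal, subicular or cortical, Pvalb and Sst neurons, and was too sparse to test in CA2, mossy, Lamp5 and Cajal-Retzius cells. CA3 pyramidal neurons, where WT was already at 9.52 and 10.6 CPM, stood at 12.5 and 8.00 CPM in KI and overlapped with WT. Pvalb interneurons were at 6.35 and 3.56 CPM in WT against 19.0 and 9.66 CPM (log2 difference 1.63, edgeR adjusted p = 0.136) and Sst interneurons at 6.07 and 6.70 CPM against 11.3 and 10.1 CPM (log2 difference 0.86, edgeR adjusted p = 0.431). Mossy cells, untested, were at 7.05 and 7.30 CPM in WT against 13.2 and 21.4 CPM in KI, and CA2 pyramidal neurons, also untested, were at 2.03 and 2.58 CPM against 1.95 and 2.65 CPM.

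The nuclei gated as CA1 and DG held some RNA of other classes. In the CA1 gate the 7 CA1 markers summed to 1253 to 1374 CPM in WT and 1082 to 1238 CPM in KI. The summed level of the 7 CA3 markers there was 192 to 194 CPM in WT, against 182 to 204 CPM in KI, that of the mossy cell markers was 6.84 to 7.27 against 9.11 to 9.97 CPM, and that of the astrocyte markers was 86.6 to 93.2 against 67.7 to 81 CPM. The CA3 sum in the DG gate was 669 to 676 CPM in WT, against 765 to 796 CPM in KI, and the DG markers themselves summed to 4381 to 4517 against 3596 to 4091 CPM. In the CGE gate the CA3 sum was 503 to 522 against 340 to 386 CPM, and that of the 6 inhibitory markers was 1611 to 1809 against 1215 to 1343 CPM. The markers of interneurons of the medial ganglionic eminence summed to 287 to 304 against 146 to 189 CPM there, and the astrocyte markers to 78.0 to 105 against 54.4 to 57.8 CPM. The part of these sums in the results was not tested.

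Scn1a in CA1 pyramidal neurons was at 221 and 217 CPM in WT, against 290 and 280 CPM in KI, with both KI libraries above both WT libraries. The difference was 1.39-fold (log2 0.47 ± 0.10, 95% interval 0.24 to 0.71, edgeR adjusted p = 0.0396). It was lost in 4 of 12 other settings: with library totals in place of normalisation factors (edgeR adjusted p = 0.0545), without the low-count filter (0.148), without WT replicate 1 (0.221) and without WT replicate 2 (0.271). Microglia, read as background for this gene, were at 66.5 and 63.7 CPM in WT against 107 and 106 CPM in KI (log2 difference 0.76, edgeR adjusted p = 0.454). The part of background in the CA1 difference was not tested. In CA2 and CA3 pyramidal neurons the log2 differences were 0.43 and 0.25 and did not pass (edgeR adjusted p = 0.189 and 0.215). Both KI libraries lay above both WT libraries in most other tested classes too. The exceptions were DG granule neurons, mossy cells, CGE interneurons, astrocytes, OPC and mural cells. Over all nuclei the level was 1.30 and 1.24 CPM per kb of gene span in WT, against 1.54 and 1.47 in KI. Scn1a did not pass there or in any of these classes.

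**Figure D5:**
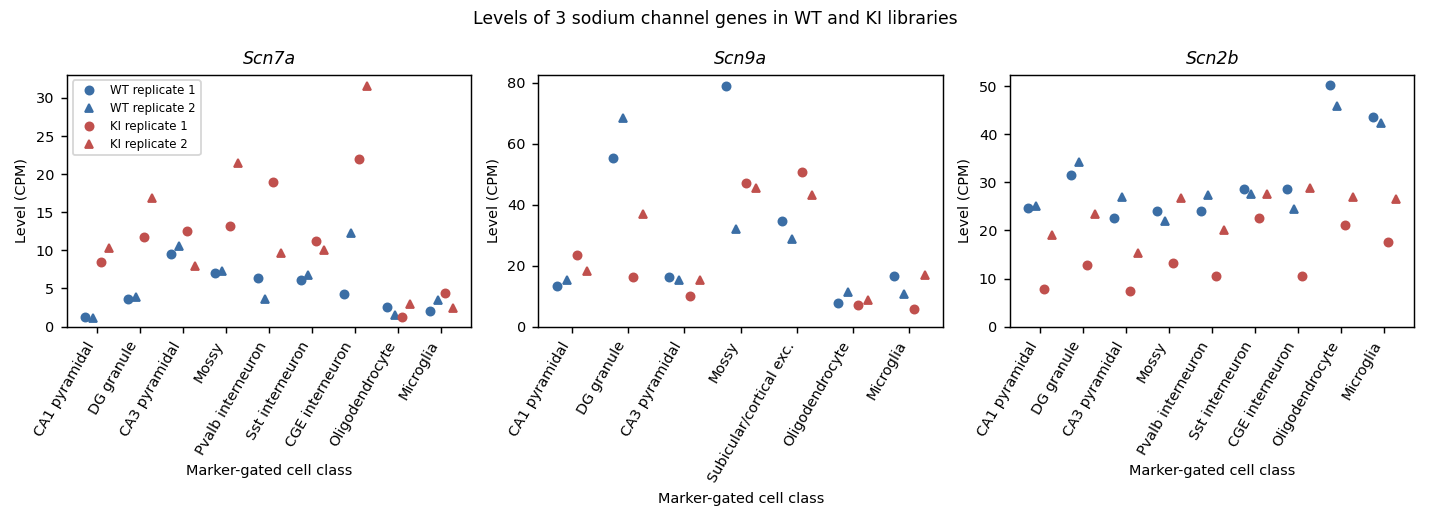
Levels of Scn7a, Scn9a and Scn2b in CPM (vertical axes) by class and library (WT blue, KI red, circles for replicate 1 and triangles for replicate 2). Scn7a lies higher in both KI libraries in CA1 and DG granule neurons, Scn9a lies lower in DG granule neurons of KI, and Scn2b is lowest in KI replicate 1 in CA1, CA3, DG granule neurons, oligodendrocytes and microglia.

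Scn9a did not pass in DG granule neurons, where both KI libraries lay below both WT libraries: 55.2 and 68.5 CPM in WT against 16.4 and 36.8 CPM in KI (945, 973, 144 and 302 UMIs, log2 difference -1.08 ± 0.32, edgeR adjusted p = 0.0882), and it was called in 7 of 12 other settings. In the DG gate, where the CA3 markers were higher in both KI libraries, several other sums were lower in both: 71.6 to 71.9 against 83.1 to 87.8 CPM for the 6 inhibitory markers, 78.5 to 94.4 against 101 to 119 CPM for the 6 markers of interneurons of the medial ganglionic eminence, 8.42 to 13.0 against 15.7 to 16.1 CPM for the 5 mossy cell markers and 430 to 669 against 919 to 955 CPM for the 7 astrocyte markers. In CA1 both KI libraries lay above both WT libraries, at 23.3 and 18.3 against 13.4 and 15.2 CPM (log2 difference 0.64 ± 0.19, edgeR adjusted p = 0.0971). These CA1 levels were not shown to exceed background. In the CA1 gate the inhibitory markers summed to 26.0 to 27.7 in KI against 28.5 to 38.9 CPM in WT and the medial ganglionic eminence markers to 44.9 to 66.0 against 79.2 to 79.8 CPM, so these were lower in both KI libraries there too. The mossy cell markers in the CA1 gate were higher in both KI libraries, at 9.11 to 9.97 against 6.84 to 7.27 CPM in WT. The part of these sums in the results was not tested. The difference between these KI effects was itself tested with the class-by-genotype term, which called 10.4% of all genes and 2 of the 9 sodium channel genes. For Scn9a the KI effect in CA1 exceeded that in DG granule neurons by 1.76 ± 0.32 on the log2 scale (95% interval 1.07 to 2.44, edgeR adjusted p = 0.00306), and it was called in 11 of 11 other settings. The antisense transcript Gm13629 showed the same term (1.48 ± 0.28, edgeR adjusted p = 0.00433), with 25.5 and 29.3 CPM in WT, against 8.65 and 17 CPM in KI in DG granule neurons.

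For Scn3b the term was 0.40 ± 0.10 (95% interval 0.18 to 0.63, edgeR adjusted p = 0.0231, lost in 4 of 11 other settings: adjusted p = 0.342 with DESeq2, 0.229 with a stricter gate, 0.0986 without WT replicate 1 and 0.448 without WT replicate 2), with 154 and 159 CPM in WT against 117 and 107 CPM in KI in DG granule neurons and 145 and 133 against 141 and 133 CPM in CA1. Scn3b was also lower in both KI libraries in microglia (76.9 and 69.0 against 30.9 and 45.7 CPM, log2 difference -0.92, edgeR adjusted p = 0.454) and oligodendrocytes (57.9 and 56.2 against 32.2 and 32.8 CPM, log2 difference -0.74, edgeR adjusted p = 0.116), and its log2 difference over all nuclei was -0.38 (edgeR adjusted p = 0.105). The same order was seen in subicular or cortical excitatory neurons, Pvalb, Sst and Lamp5 interneurons, Cajal-Retzius cells, OPC and fibroblasts. It was not seen in CA1, CA2 and CA3 pyramidal neurons, mossy cells, CGE interneurons, astrocytes and mural cells. The term of Scn7a was 0.97 ± 0.32 and did not pass (edgeR adjusted p = 0.0732), so its larger fold in CA1 was not shown to differ from that in DG granule neurons, and that of Scn1a did not pass either (0.26, edgeR adjusted p = 0.222).

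Scn2b was lower in both KI libraries than in both WT libraries in DG granule neurons (31.6 and 34.3 against 12.9 and 23.5 CPM), CA1 pyramidal neurons, CA3 pyramidal neurons (22.7 and 26.9 against 7.36 and 15.3 CPM), oligodendrocytes (50.3 and 45.9 against 21.2 and 26.9 CPM) and microglia, and passed in none of these 5. The log2 differences were -0.72, -0.82, -1.07, -0.97 and -0.96, with edgeR adjusted p = 0.122, 0.163, 0.0724, 0.0886 and 0.537. KI replicate 1 was the lowest library in each of them. Both KI libraries also lay below both WT libraries in the other tested classes except mossy cells, CGE interneurons and mural cells. Microglia, whose counts stand for background here, differed by about as much as the neurons.

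In the other 14 classes no sodium channel gene passed the edgeR test. For these, the share of all genes called was 1.72% in CA2 (7 sodium channel genes tested, 1 with an unadjusted p under 0.05), 3.11% in CA3 (8 tested, 2 under 0.05), 1.01% in mossy cells (7 tested, 0 under 0.05) and 0% in the subicular or cortical excitatory neurons (9 tested, 1 under 0.05). It was 1.24% in Pvalb (8 tested, 3 under 0.05), 0.685% in Sst (8 tested, 2 under 0.05) and 1.63% in Lamp5 interneurons (7 tested, 3 under 0.05), and 0% in Cajal-Retzius cells (5 tested, 1 under 0.05). Among other cells it was 1.1% in astrocytes (6 tested, 0 under 0.05), 0.638% in oligodendrocytes (7 tested, 2 under 0.05), 1.46% in OPC (6 tested, 0 under 0.05), 0.0336% in microglia (6 tested, 3 under 0.05), 0% in mural cells (2 tested, 0 under 0.05) and 0% in fibroblasts (3 tested, 1 under 0.05). DESeq2 called 0 of the sodium channel genes in these 14 classes. In the 4 classes where edgeR called 0 genes at all, 1777 (subicular or cortical), 231 (Cajal-Retzius), 26 (mural) and 243 (fibroblast) genes had an unadjusted p under 0.05, and DESeq2 called 44, 1, 0 and 0.

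The channel works with cytoplasmic partners, which were followed through 4 further gene lists. The fibroblast growth factor homologous factors (Fgf11 to Fgf14) bind the C-terminal tail of the alpha subunit and set its inactivation. Between inhibitory and excitatory neurons 3 of the 4 were higher and 1 was lower, with a median log2 difference of 1.40, in the contrast where 23% of all genes were higher and 23.8% lower. Fgf13 rose most, from 95.8 ± 7.46 to 1005 ± 141 CPM (log2 difference 3.30), and stood at 1222 ± 258 CPM in Pvalb interneurons. Fgf11 was higher by 1.47 and Fgf14 was lower by 0.26 on the log2 scale. CA1 pyramidal neurons had more Fgf11 (1.96) and Fgf12 (0.82) and less Fgf13 (-1.01) and Fgf14 (-0.41) than DG granule neurons, and CA3 had more Fgf13 (0.73) and Fgf14 (0.51) and less Fgf11 (-0.84) and Fgf12 (-0.29) than CA1. In Pvalb and Sst interneurons Fgf12 was higher (0.73) and Fgf13 lower (-0.81) than in CGE and Lamp5 cells.

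The scaffold of the axon initial segment and node, built on ankyrin-G (Ank3) and its binding partners, holds channels at the site of spike initiation. Of its 8 genes, 7 were lower and 1 higher in inhibitory than in excitatory neurons (23.8% and 23% of all genes), with Ank3 at 1123 ± 49.6 against 1682 ± 96.5 CPM (log2 difference -0.67), Trim46, a microtubule organiser of the initial segment, at -0.60, and the contactin Cntn2 at 0.57. Pvalb and Sst interneurons exceeded CGE and Lamp5 cells in 6 of the 8 (Cntn2 0.55, Cntn1 0.50) and were lower in 1 (Trim46 -0.51), against 11.9% and 10.7% of all genes. CA1 exceeded DG granule neurons in Cntn2 (1.05) and Nfasc (0.45) and was lower in Ank3 (-0.37), against 20.6% and 18.9% of all genes, and CA3 exceeded CA1 in Nrcam (0.45) and Ank3 (0.40) and was lower in Cntn2 (-1.0) and Nfasc (-0.31), against 17.9% and 17.1%. In OPC, 5 were higher than in oligodendrocytes (Cntn1 2.65, Nrcam 1.62) and 3 were lower (Cntn2 -3.23, Nfasc -1.52), against 23.3% and 20.6% of all genes.

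Sodium that enters through the channels is removed by the Na,K-ATPase and exchanged for calcium by the Slc8 exchangers. Of these 9 genes, 3 were higher (Slc8a3 1.56, Atp1b3 0.73) and 4 lower (Slc8a2 -1.84, Slc8a1 -1.18) in inhibitory neurons (23% and 23.8% of all genes). Pvalb and Sst cells had more Atp1b3 (0.69) and Slc8a3 (0.64) and less Atp1b2 (-1.04) than CGE and Lamp5 cells. The exchanger Slc8a1 separated the principal cells, at 2122 ± 97.3 CPM in CA1 and 233 ± 77.9 CPM in DG granule neurons (log2 difference 3.33). In that contrast 2 of the 9 were higher and 5 lower in CA1 (20.6% and 18.9% of all genes), the lower ones including Slc8a2 (-1.19) and Slc8a3 (-0.84). CA3 against CA1 had 1 higher (Atp1b3 0.32) and 5 lower (Slc8a3 -1.08, Atp1b2 -0.62; 17.9% and 17.1% of all genes), and OPC against oligodendrocytes had 1 higher and 5 lower (Atp1b3 -1.31, Slc8a1 -1.11; 23.3% and 20.6% of all genes). Of the 14 kinases, calmodulins and ubiquitin ligases that act on the channels, 3 were higher (Nedd4 0.32, Prkaca 0.22) and 6 lower (Camk2a -1.76, Prkce -1.17) in inhibitory neurons (23% and 23.8% of all genes). Within interneurons 4 were lower in Pvalb and Sst cells (Nedd4 -0.26, Fyn -0.23; 10.7% of all genes), and CA1 had 1 higher (Cdk5 0.35) and 7 lower (Prkce -0.73, Nedd4l -0.60) than DG granule neurons (20.6% and 18.9% of all genes).

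Between KI and WT, 1 of 9 extrusion genes and 1 of 14 modulators passed in DG granule neurons (9.04% of all genes), and 1 of 4 growth factor homologous factors and 1 of 9 extrusion genes in CA3 pyramidal neurons (3.11% of all genes). In DG granule neurons Atp1b3 was higher by 0.72 (edgeR adjusted p = 0.0248) and Camk2a lower by 0.50 (edgeR adjusted p = 0.0173). The excitatory neuron markers in the DG gate summed to 436 to 456 CPM in WT and 316 to 369 CPM in KI. The CA1 markers there summed to 81.6 to 92.1 against 60.3 to 72.2 CPM, while the CA3 markers were higher in both KI libraries. The part of these sums in the DG values was not tested. In CA3 pyramidal neurons Fgf11 went from 3.08 and 2.16 CPM to 8.65 and 7.50 CPM (log2 difference 1.71, edgeR adjusted p = 0.0300) and Atp1b1 was higher by 0.52 (edgeR adjusted p = 0.0340). In the CA3 gate the CA3 markers summed to 2434 to 2442 CPM in WT and 2207 to 2238 CPM in KI, the mossy cell markers to 18.6 to 24.4 against 35.3 to 46.5 CPM and the fibroblast markers to 13.1 to 13.5 against 19.5 to 24.1 CPM, and their part in these values was not tested. The class-by-genotype term between CA1 and DG granule neurons passed, among others, for Cntn1 (-0.61, edgeR adjusted p = 0.00167) and Slc8a1 (0.81, edgeR adjusted p = 0.00842).

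Genes whose class pattern was most like each sodium channel were listed by Pearson r over the 17 class means, given as a description since the classes share libraries. Scn1a was most like Sh3rf3 (0.965), Fam78b (0.940) and Gm48677 (0.937), and Scn2a most like Mbd5 (0.953), Bicdl1 (0.937) and the initial segment gene Trim46 (0.935). Scn8a was most like Phf24 (0.929), Cdh12 (0.918) and the calcium-activated potassium channel gene Kcnma1 (0.910). After Gm13629, Scn9a was most like the netrin receptor gene Unc5d (0.921) and Epb41l1 (0.917). Lower values were found for Scn3a (Traf3ip2, 0.808) and Scn3b (Fbxo27, 0.833), and none are given for Scn7a, Scn2b and Scn4b, whose counts were sparse or near background. Among the 9 genes themselves, the highest values joined Scn1a with Scn9a (0.794), Scn2a with Scn8a (0.754), the sparse Scn2b with Scn4b (0.750) and Scn1a with Scn2a (0.708).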

How the data were processed

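Libraries were prepared with the 10x Chromium 3′ v3 chemistry from 2 WT and 2 KI mice. The deposited values are raw UMI counts per gene and nucleus, made by the authors with Cell Ranger 7.0.1 (file header) on mm10, one matrix per library. Whether intronic reads were counted, the annotation release and strand use are not given in the sources used here. Single-nucleus tests were used in the study, whereas here the counts were summed per library and class, since nuclei of 1 mouse are not replicates. The 2 mice per group are separate animals.

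Nuclei with at least 500 genes were gated with 146 marker genes. A nucleus was placed where its best class score exceeded the next by a lead of 5, and those carrying markers of a pair of lineages were left out as likely doublets, with no other doublet caller. Replicates did not agree within sampling noise, so all 4 libraries were kept. Sums were tested with edgeR 4.0.16 (R 4.3.3): filterByExpr, TMM normalization, glmQLFit and glmQLFTest, threshold 0.05 after Benjamini-Hochberg adjustment over all genes of a comparison. Class contrasts and the class-by-genotype term had the library as a block. The planned class of Vip interneurons is represented by the CGE gate. Alternatives were DESeq2 1.42.0, median-of-ratios size factors, library totals, no low-count filter, a stricter gate (lead 20), at least 1000 genes, removal of the 5% deepest nuclei, a block on the replicate number and leaving out each library. Levels per kb used the gene span. Intervals are at 95% and a count of 0 was given the limit of 3 UMIs.

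All 9 genes are named. From the other lists, genes past the threshold are named, at most 2 per direction, list and comparison. The 3 genes with the highest r, among genes with at least 10 CPM in 1 class, were taken as most like each gene, and the first of them is given where r was low. Some genes of the lists and some sequences are not reported here. The members and lists were chosen with earlier results of these data known. The scripts were tested on simulated data. Of true log2 changes of 1, 62.5% were recovered between KI and WT in CA1 and 27% for the class-by-genotype term. Of true log2 changes of 2, 99.5% and 92% were recovered. A result that did not pass therefore does not show that a change of 1 was absent.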

Additional observations from a re-analysis of the deposited data

Results flagged for a closer look

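The effect of genotype on Scn9a differed between CA1 pyramidal and DG granule neurons when the difference itself was tested with the class-by-genotype term: the log2 effect was 1.76 higher in CA1 (edgeR adjusted p = 0.00306), the level being higher in both KI libraries in CA1 and lower in both in DG granule neurons. In the DG gate the summed inhibitory, medial ganglionic eminence, mossy and astrocyte markers were lower in both KI libraries too, and those of CA3 were higher. In the CA1 gate the inhibitory, medial ganglionic eminence and astrocyte markers were also lower in both KI libraries, and the mossy cell markers were higher in both. Their part in the result was not tested. The same term was 0.40 for Scn3b (edgeR adjusted p = 0.0231, lost in 4 of 11 other settings), whose levels overlapped between genotypes in CA1 and were lower in both KI libraries in DG granule neurons. Scn3b was also lower in both KI libraries in microglia and oligodendrocytes (log2 differences -0.92 and -0.74, edgeR adjusted p = 0.454 and 0.116). The same order was seen in subicular or cortical excitatory neurons, Pvalb, Sst and Lamp5 interneurons, Cajal-Retzius cells, OPC and fibroblasts.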

How the results depend on the processing

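No call changed its direction in any alternative run. Of 31 calls of a sodium channel gene, 18 were made in every alternative, and of 344 refits of these calls 297 still passed and 47 did not. The number of calls between KI and WT over the classes was 4 and became 7 without the low-count filter and 3 to 24 when 1 library was left out: 5 without WT replicate 1, 3 without WT replicate 2, 12 without KI replicate 1 and 24 without KI replicate 2. Over all nuclei it was 1, and became 2 with DESeq2 and 0 to 5 with 1 library left out (0 without WT replicate 1 or WT replicate 2, 3 without KI replicate 1, 5 without KI replicate 2). The class-by-genotype term had 2 calls, 1 with DESeq2, 1 with the stricter gate and 1 to 4 with 1 library left out (1 without WT replicate 1 or WT replicate 2, 4 without KI replicate 2). The cause was not tested. Class differences numbered 24 and ranged from 18 to 25. Where 1 library was left alone in its group, it was assumed to vary like the others.

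Over all genes the number called in CA1 between KI and WT was 915, and 3 without the low-count filter and 4284 without KI replicate 2. In DG granule neurons it was 1444, and 870 to 7291 with 1 library left out. In CGE interneurons it was 88 and ranged from 4 to 419, over all nuclei 169 and from 130 to 7460, and for the class-by-genotype term 1744 and from 689 (DESeq2) to 3071. DESeq2 called 3448 genes in place of 5266 between CA3 and CA1 and 1541 in place of 2762 within interneurons. Library totals in place of TMM shifted the median log2 difference by over 0.1 in 7 of 24 comparisons (by -0.151 in DG granule neurons) and moved the share of called genes that were higher by over 10 points in 12 of the 20 comparisons with calls: from 50.8% to 32.9% in DG granule neurons, from 64.2% to 52.7% in CA1, from 67.0% to 41.9% in CGE interneurons and from 52.1% to 39.7% between CA1 and DG granule neurons.

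The labels number the mice but name no pairing, and same-numbered libraries did not deviate together (correlations of -0.074 to 0.0575 in the classes other than mural cells, 0.178 there). With the replicate block, the calls between KI and WT numbered 10 over the classes and 2 over all nuclei. Low counts limit Scn4b and Scn7a, the latter also in CA1, where the WT libraries held 15 and 14 UMIs.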
